A study of Mus musculus with 4 samples.

Results

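Distal H3K27me3 regions shared by both libraries of the mark were examined in mouse hematopoietic progenitors. Overlapping peaks of the 2 H3K27me3 libraries were merged on chromosomes 1 to 19 of mm10, and a region was kept when it held a peak of both lists, when its centre lay more than 1500 bp from every transcription start of the GENCODE mouse annotation, and when no peak of either RUNX1 library overlapped it. Of 9093 merged regions, 488 were kept (5.37%). Among the 2611 distal regions free of RUNX1 peaks, these 488 (18.7%) were the ones called in both lists, against 39% of all merged regions. They were chosen by peak calls and by distance to a start, so peak strength and distance to a start are given as descriptions only.

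The series holds 4 ChIP-seq libraries from embryonic stem cells with a Tet-on transgene for dominant-negative FOS (dnFOS), differentiated in vitro for 2 days to floating hematopoietic progenitors, and Doxycycline (DOX) switches the transgene on. Every library comes from this genotype, and the labels do not say whether the line is 1 clone or whether cultures were pooled. There was 1 RUNX1 library labelled with DOX, 1 RUNX1 library labelled without, and 2 libraries whose antibody label is H3K27me3. Because there was 1 library per label, no difference between libraries was tested and no p-value is given. The H3K27me3 libraries are named by their titles, untreated and DOX, since each title contradicts the treatment in the same sample's labels, and the protocol attached to both names an antibody against RUNX1. The run names in the RUNX1 lists likewise give the opposite treatment to the labels, which does not touch the rule, since a peak of either list excluded a region. On chromosomes 1 to 19 there were 6216 peaks in the library titled untreated, 7071 in the library titled DOX, and 21467 and 18052 in the RUNX1 libraries. The lists hold no read counts, so the depth is unknown, and the intervals below cover only counting error over regions.

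H3K27me3 is trimethylated lysine on histone H3, laid down by Polycomb repressive complex 2. In stem and progenitor cells it is known for covering CpG islands, stretches rich in CG dinucleotides, at silent genes of other lineages, above all genes for developmental transcription factors, and clusters of such islands form Polycomb domains. As a check of the label, 164 of 374 listed developmental regulators (43.9%; 95% Wilson interval 38.9 to 48.9) had a promoter region of the mark, that is, a region in both lists within 1500 bp of a start, against 8.76% of all protein-coding genes. Of 56 listed blood genes, 7 had one (12.5%; 6.19 to 23.6).

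The 488 distal regions fell into 3 kinds of sequence, judged on the 200 bp at the region centre. CpG-rich regions met the usual CpG island criteria, a GC content of at least 50% and a ratio of observed to expected CpG of at least 0.6, and there were 283. Soft-masked regions had more than 50% of the window in lower case in RefSeq's reference, which marks interspersed and simple repeats, without meeting the criteria, and there were 93. Such repeats were less frequent here than in the genome, since 19.5% (16.2 to 23.2) of all 488 windows were over 50% soft-masked, against 28.2% of distal points on a 20 kb grid, 16.5% (14.3 to 19.01) of windows 2000 bp away and 52.4% (48.4 to 56.3) of distal regions of both lists under RUNX1 peaks. The remaining 112 regions met neither description. Windows of the CpG-rich and soft-masked kinds are shown because their base composition is what the kinds were defined by. All sequences are the plus strand of GRCm38 (mm10), from RefSeq, and each is named after the gene with the nearest start.

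Each peak has a -log10 q, the peak caller's measure of significance, and its percentile among all peaks of its list. Of the 10 regions whose lower percentile of the 2 lists was highest, 7 were soft-masked, and 6 of these were runs of alternating T and A. The windows near Knop1 (chr7:118893830-118894029, in an intron of Iqck) and Frmd4a (chr2:4336419-4336618, in an intron of Frmd4a) are shown with tandem repeats in capitals. The window at Cd163l1 (chr7:140221241-140221440, in an intron of Cd163l1) was a run of a longer unit, and had 379 other close copies in the genome, meaning places at least 95% identical over at least 90% of the window.
Knop1: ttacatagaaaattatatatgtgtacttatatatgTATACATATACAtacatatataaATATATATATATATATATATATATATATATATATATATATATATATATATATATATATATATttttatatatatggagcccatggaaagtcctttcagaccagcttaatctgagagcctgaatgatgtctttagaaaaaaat
Frmd4a: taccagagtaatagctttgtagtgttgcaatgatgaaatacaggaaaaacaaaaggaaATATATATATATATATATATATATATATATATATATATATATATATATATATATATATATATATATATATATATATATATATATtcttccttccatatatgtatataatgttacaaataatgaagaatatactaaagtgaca
Cd163l1: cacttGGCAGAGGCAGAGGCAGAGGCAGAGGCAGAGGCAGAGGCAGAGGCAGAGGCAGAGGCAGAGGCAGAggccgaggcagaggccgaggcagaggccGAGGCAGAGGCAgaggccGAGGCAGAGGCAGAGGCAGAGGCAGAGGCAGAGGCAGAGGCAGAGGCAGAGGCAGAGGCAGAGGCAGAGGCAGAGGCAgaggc

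The CpG-rich regions among these 10 were at Unc45bos (chr11:82931188-82931387, in an intron of Unc45b and Unc45bos) and E030030I06Rik (chr10:22151436-22151635, intergenic). Both were close to a promoter region of the mark, at 0.802 and 0.766 kb in that order. They are shown beside 3 CpG-rich regions more than 50 kb from any promoter region of the mark, chosen among the 5 such regions with the highest CpG ratio. These were at Apba1 (chr19:23893285-23893484, coding exon), Otud7a (chr7:63758160-63758359, coding exon) and Gm45336 (chr8:92460504-92460703, intergenic). Capitals mark every CG, of which the 200 bp held 33, 26, 35, 46 and 27 in that order. The Unc45bos window is itself repetitive, since a longer unit recurs along it with variations. Only exact repeats of units of up to 6 bases were counted as tandem repeats, so this window was not counted.
Unc45bos: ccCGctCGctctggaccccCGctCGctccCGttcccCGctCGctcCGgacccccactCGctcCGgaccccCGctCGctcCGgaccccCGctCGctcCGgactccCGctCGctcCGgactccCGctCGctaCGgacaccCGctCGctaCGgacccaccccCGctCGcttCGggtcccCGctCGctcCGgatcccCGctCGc
E030030I06Rik: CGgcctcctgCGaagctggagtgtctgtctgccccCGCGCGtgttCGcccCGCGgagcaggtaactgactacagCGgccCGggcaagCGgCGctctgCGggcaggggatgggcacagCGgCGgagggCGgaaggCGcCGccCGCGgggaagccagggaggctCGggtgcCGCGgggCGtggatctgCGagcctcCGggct
Apba1: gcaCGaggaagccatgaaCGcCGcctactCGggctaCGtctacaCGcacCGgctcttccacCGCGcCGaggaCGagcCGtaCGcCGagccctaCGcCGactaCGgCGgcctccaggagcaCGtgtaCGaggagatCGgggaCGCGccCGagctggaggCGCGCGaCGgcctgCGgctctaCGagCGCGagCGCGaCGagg
Otud7a: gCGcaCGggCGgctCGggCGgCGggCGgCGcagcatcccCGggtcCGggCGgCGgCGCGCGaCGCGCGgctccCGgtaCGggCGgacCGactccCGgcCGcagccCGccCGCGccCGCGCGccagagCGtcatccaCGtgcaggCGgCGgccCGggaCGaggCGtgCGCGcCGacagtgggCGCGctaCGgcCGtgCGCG
Gm45336: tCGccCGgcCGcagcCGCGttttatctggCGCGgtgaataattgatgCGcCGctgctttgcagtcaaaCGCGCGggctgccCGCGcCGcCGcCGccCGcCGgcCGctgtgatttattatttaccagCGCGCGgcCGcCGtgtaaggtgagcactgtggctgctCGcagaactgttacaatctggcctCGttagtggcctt

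A window that was wholly soft-masked, in an intron of Gm28905 (chr10:9987284-9987483), had 14519 other close copies and 2 CG dinucleotides, in capitals below. It stands for 12 soft-masked regions whose window had over 100 such copies.
Gm28905: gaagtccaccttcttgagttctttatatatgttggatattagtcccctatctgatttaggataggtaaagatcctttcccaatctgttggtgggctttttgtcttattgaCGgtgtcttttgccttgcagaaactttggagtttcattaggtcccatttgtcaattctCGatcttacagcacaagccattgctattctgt

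CpG content set the shared distal regions apart from their surroundings. Of the 488 windows, 58.0% (53.6 to 62.3) met the CpG island criteria, against 5.65% (4.37 to 7.29) of 973 windows taken 2000 bp to either side and 0.549% of 109044 distal points on a grid of 20 kb along the same chromosomes. Promoter regions of the mark reached 82.0% (80.4 to 83.5 of 2449). Distal regions called in 1 list without RUNX1 reached 19.1% (17.5 to 20.9 of 2121), and distal regions of both lists under RUNX1 peaks 11.3% (9.05 to 14.1 of 609). None of these intervals overlapped that of the 488. The median ratio of observed to expected CpG was 0.73 (95% interval of the median 0.67 to 0.77), against 0.85 in promoter regions, 0.24 in distal regions of 1 list, 0.19 in those under RUNX1 peaks and 0.14 on the grid. Within the CpG-rich kind the median ratio was 0.88 and the median GC content 71%, with 22 CG in 200 bp, the same number as the promoter regions held.

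**Figure D1:**
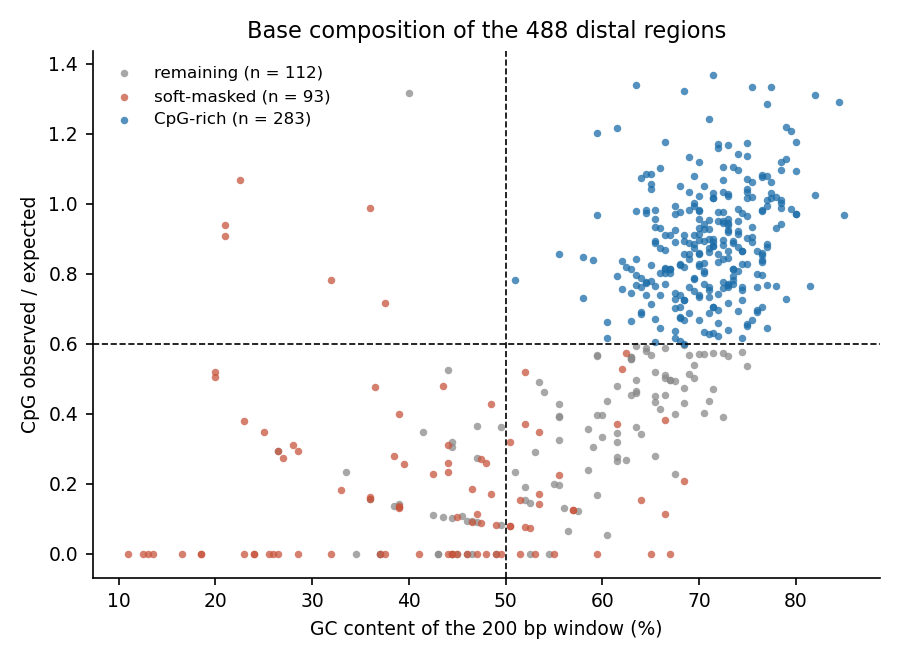
Each point is 1 of the 488 distal regions, with the GC content of its 200 bp window in percent on the horizontal axis and the ratio of observed to expected CpG on the vertical axis. The dashed lines are the CpG island criteria, 50% and 0.6; the 283 CpG-rich regions lie above both, and many of the 93 soft-masked regions lie at a CpG ratio near 0.

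Short motifs were counted in the same windows. The GC box GGGCGG, the site of SP and KLF family factors, stood on either strand in 55.1% (49.3 to 60.8) of CpG-rich windows, close to the 53.7% (51.7 to 55.6) of promoter regions and above the 17.9% (15 to 21.1) of the 599 distal grid points that met the CpG criteria. CGCGCG stood in 27.9% of CpG-rich windows, 27.1% of promoter regions and 10.7% of those grid points. Of those grid points 49.4% were over 50% soft-masked, against 0.707% of CpG-rich regions, and the part of repeats in this difference was not tested. Over all 488 windows, GGGCGG stood in 38.5% (34.3 to 42.9) and CGCGCG in 16.4% (13.4 to 19.9), both below the promoter regions. The CpG-rich kind was chosen by its CG content and the promoter regions were not, so the 2 sets are not matched. The RUNX consensus TGTGGTT was in 2.46% (1.41 to 4.25) of the 488 and 4.72% of distal grid points. The GATA consensus AGATAA was in 3.48% (2.19 to 5.51) against 13.5%, and the AP-1 consensus TGANTCA in 1.43% (0.697 to 2.93) against 5.97%. CpG-rich distal grid points also held these 3 motifs in few windows, 2.34%, 2.67% and 2.67%. A match of letters shows no binding, and the rule had left out regions under RUNX1 peaks.

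Coding exons were the most frequent place of the CpG-rich regions. A centre in a coding exon was found for 129 of the 488 (26.4%; 22.7 to 30.5) and for 122 of the 283 CpG-rich regions (43.1%; 37.5 to 48.9). Distal grid points lay in coding exons at 1.04%, CpG-rich distal grid points at 11.9% (9.50 to 14.7), and windows 2000 bp from the regions at 3.08% (2.17 to 4.37). The CpG-rich grid points are not a matched control, here or below. Their median GC content was 54% with 10 CG per window, against 71% and 22 in CpG-rich regions, and 49.4% of them were over 50% soft-masked. Regions of 1 list reached 9.29% (8.13 to 10.6), and those under RUNX1 peaks 2.299% (1.37 to 3.82). Of the other CpG-rich regions, 8 lay in UTRs, 5 in exons of non-coding genes, 48 in introns and 100 between genes. Soft-masked regions were divided between introns (44) and intergenic sequence (49), with 0 of 93 in any exon, which allows a share of up to 3.97%.

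The coding exons with a region were long. Their median length was 899 bp, against 186 bp for the exons at the 1132 distal grid points in coding exons, which like region centres fall more often in longer exons. An exon of more than 500 bp held 97 of the 129 regions (75.2%; 67.1 to 81.8), against 24.8% (22.4 to 27.4) of those grid points and 43.7% (32.7 to 55.2) of the 71 that were CpG-rich. The last coding exon held 73 and the first held 35, and an exon can be both. The 129 regions lay in 114 genes, and for 54 of the regions (41.9%; 33.7 to 50.5) the gene's own promoter also had a region of the mark. Counted by gene, 8.76% of all protein-coding genes had one, and the share for grid points in coding exons was not computed. The longest such exon was in Eppk1, whose product epiplakin is a cytolinker of keratin filaments, with 10374 bp. Others were in Mn1, a transcriptional coregulator (3718 bp), Shank1, a scaffold of the postsynaptic density (3088 bp, 2 regions), and Skor2, a corepressor of Purkinje cells (2598 bp). The host of a region was not always the gene with the nearest start. The region nearest to the start of Gm13424, for example, lay in a coding exon of Prdm12, a regulator of sensory neurons, and that nearest to Kif19a in one of Btbd17.

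**Figure D2:**
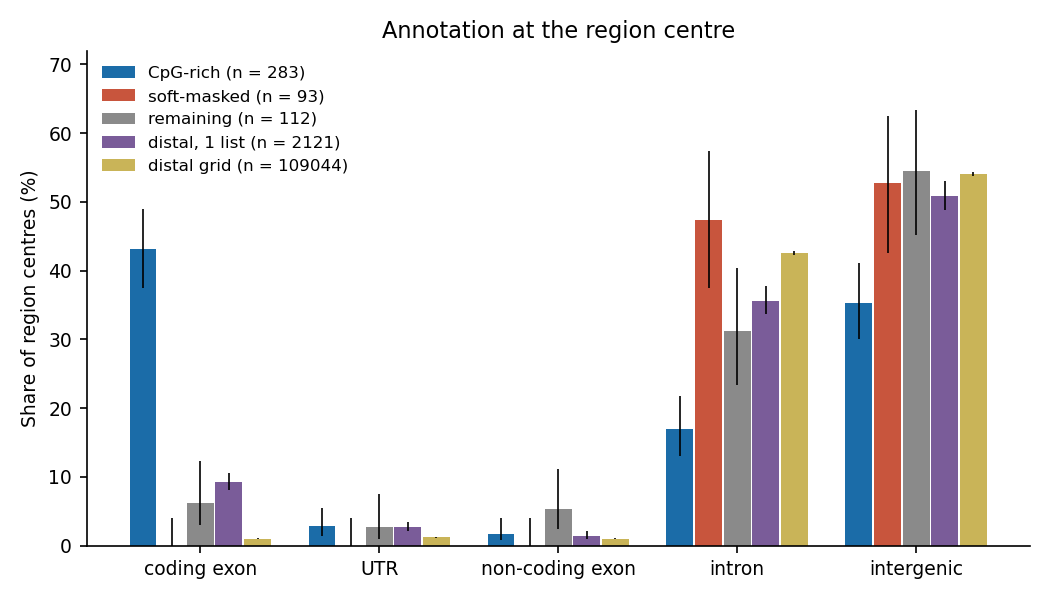
Bars give the share of region centres in percent that lie in each kind of annotation, with 95% Wilson intervals as error bars, for the 3 kinds of shared distal regions, for distal regions of 1 list and for distal grid points. CpG-rich regions reach 43.1% in coding exons, where the grid has 1.04%, and soft-masked regions are seen only in introns and between genes.

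The body of a gene held 278 regions (56.97%; 52.5 to 61.3), against 45.9% of distal grid points. With a limit of 5000 bp to a start the share of regions was 43.9% (38.4 to 49.6). The grid points were not recomputed at that limit, so this value has no matching background. By kind the share was 64.7% (58.9 to 70.0) for CpG-rich, 47.3% (37.5 to 57.4) for soft-masked and 45.5% (36.6 to 54.8) for remaining regions, and the intervals of the last 2 held the value of the grid. A gene whose promoter also carried the mark in both lists was the host of 20.7% (17.3 to 24.5) of the regions, against 7.93% of distal grid points and 18.2% (15.9 to 20.7) of windows 2000 bp away.

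As called, regions were short, the median being 241.5 bp wide. Their widths differed by kind, from 367 bp for CpG-rich to 180.5 bp for remaining and 127 bp for soft-masked regions. The longest was 1650 bp, in an intron of Lncppara (chr15:85670389-85672038), a non-coding neighbour of Ppara. Next came 1202 bp in a coding exon of Mzf1, a myeloid zinc finger gene, 1136 bp in Btbd17, 1135 bp in Dact3, which codes for a Wnt pathway antagonist, and 1057 bp in an intron of Macrod1. All of these 5 were CpG-rich. The widths are those of merged peak calls, so they depend on the peak caller and need not give the extent of the mark. Likewise, several regions at the same gene are separate calls. Whether neighbouring calls are parts of a broader domain was not tested.

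Promoter regions of the mark lay at a median distance of 117 kb (90.3 to 143) from the 488, against 288 kb (257 to 322) for distal regions of 1 list and 655 kb for distal grid points. CpG-rich regions were at a median of 64.2 kb (46.3 to 96.6), remaining regions at 96.5 kb (50.7 to 148) and soft-masked regions at 452 kb (277 to 727). Within 10 kb of a promoter region were 74 of the 488 (15.2%; 12.3 to 18.6), of which 58 were CpG-rich, 14 remaining and 2 soft-masked, against 1.30% of distal grid points and 4.84% (3.39 to 6.87) of those that met the CpG criteria. Within 1 kb lay 11 (2.25%) and within 2 kb 24 (4.92%), against 0.0101% and 0.0807% of distal grid points. The closest was at 326 bp. More than 50 kb away were 307 regions (62.9%; 58.5 to 67.1), and 62.3% of windows 2000 bp from the regions. The share was 93.3% for distal grid points, 85.8% for those that met the CpG criteria and 78.1% for distal regions of 1 list. Another region of both lists, distal or promoter, lay within 10 kb of 178 (36.5%; 32.3 to 40.8), against 2.00% of distal grid points. Promoter regions had 39.2% (37.3 to 41.1), an interval that overlapped. Distal regions under RUNX1 peaks had 28.2% (24.8 to 31.9), distal regions of 1 list 20.2% (18.6 to 22.0) and CpG-rich distal grid points 9.02% (6.98 to 11.6).

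**Figure D3:**
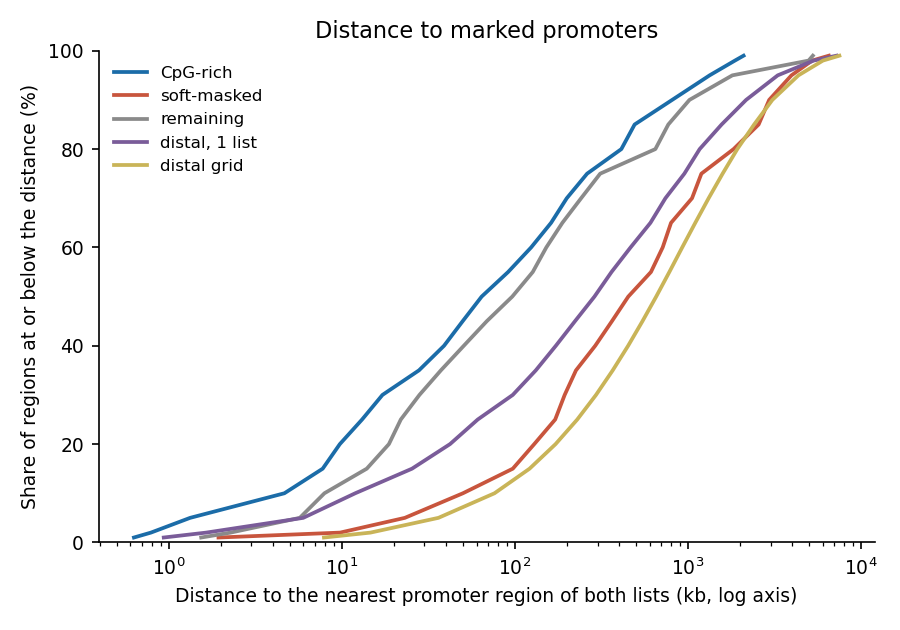
Curves give, for each distance in kb on a log axis, the share in percent of regions whose centre lies at or below that distance from the centre of the nearest promoter region of both lists. The CpG-rich regions run farthest to the left with a median of 64.2 kb, and the soft-masked regions (452 kb) lie near the distal grid points (655 kb).

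Developmental regulators were frequent neighbours. The nearest start belonged to a gene of 5 lists (Hox, other homeobox, Fox, Sox and T-box, bHLH, and developmental zinc finger genes) at 52 regions (10.7%; 8.22 to 13.7), against 0.780% of distal grid points, 1.84% (1.03 to 3.26) of CpG-rich distal grid points, 5.99% (5.06 to 7.08) of distal regions of 1 list and 8.37% (7.34 to 9.53) of promoter regions. The interval overlapped that of the promoter regions and that of the windows 2000 bp away, 10.5% (8.71 to 12.6). With -log10 q of at least 5 the share was 7.69% (5.09 to 11.5), and with a limit of 5000 bp to a start 8.78% (6.06 to 12.6). Both intervals overlapped that of the regions of 1 list, which was not recomputed under these settings. Of those 52, 41 were CpG-rich, 10 remaining and 1 soft-masked. In genes, 39 of 374 developmental regulators (10.4%; 7.72 to 13.9) were the nearest gene of a region, against 0.808% of all annotated genes and 1.15% of protein-coding genes. The promoter of 17 of the 39 had a region of the mark in both lists, and that of 23 had one in at least 1 list. The share in both lists was like that of all listed developmental regulators, 164 of 374 (43.9%; 38.9 to 48.9). By the nearest protein-coding start, 17.4% of the regions were next to a developmental regulator. The grid points and other region sets were not recomputed by that start, so this value has no matching background.

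Homeobox genes outside the Hox clusters made up most of this, with 22 of 128 genes (17.2%; 11.6 to 24.7) and 28 regions. Nkx2-5, the cardiac homeobox gene, had 3 CpG-rich regions, 1 in its coding exon (chr17:26839008-26839657) and 2 upstream at 4.97 and 6.01 kb, and no promoter region in both lists. The coding-exon region had a fold enrichment, or peak height over background, of 4.56 in the library titled untreated and 5.20 in the library titled DOX. Pax3, a regulator of neural crest and muscle, had 2 regions at 19.5 and 20.2 kb upstream, and Gbx2, which positions the midbrain-hindbrain border, had 2 at 10.8 and 37.4 kb, the farther one in a coding exon of Asb18. Uncx and Pou4f1, a sensory neuron factor, also had 2 each. Homeobox genes with 1 region each included Barhl1, Bsx, Evx2, Lmx1a, Meis1, Nkx1-1, Nkx2-1, Nkx3-2, Otx1, Pax7, Pbx4, Pou3f2, Pou3f3, Tlx1 and Zfhx2. Only Pbx4 had its region in soft-masked sequence.

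Of 57 bHLH genes, 6 were next to 10 regions. Neurod2, a factor of cortical neurons, had 5, more than any other gene. Their centres lay between 2.04 and 9.18 kb from a Neurod2 start: 1 in the coding exon, 1 in a UTR, 2 upstream and 1 downstream of the gene. Fold enrichment at these 5 ran from 3.23 to 4.77 in the library titled untreated and from 3.06 to 4.62 in the library titled DOX, and 4 of them were CpG-rich. The Neurod2 promoter had a region of the mark too, 0.877 kb from the closest of the 5. The other bHLH genes were Id2, Neurog1, Nhlh2, Olig2 and Twist1, with 1 region each. At Nhlh2 and Olig2, factors of the nervous system, the region was in the coding exon and the promoter had none in both lists.

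Zinc finger regulators had 6 of 75 genes with 8 regions, all CpG-rich. Prdm13, a regulator of spinal cord neurons, had 2 in a coding exon, and Ebf3 had 1 in a coding exon and 1 upstream. Insm1 (coding exon), Nr2e1 (coding exon), Osr2 (upstream) and Gata6 had 1 each, the last at 180.9 kb downstream of the nearest start. Of 75 Fox, Sox and T-box genes, Foxc1, Foxd1 and Foxo6 were next to 4 regions, and the one at Foxc1, a gene of mesoderm and eye development, was 946 bp wide with its centre in the coding exon (chr13:31807751-31808696). The 39 Hox genes had 2 regions, in an intron of Hoxb3 and in a UTR of Hoxc6, neither CpG-rich.

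**Figure D4:**
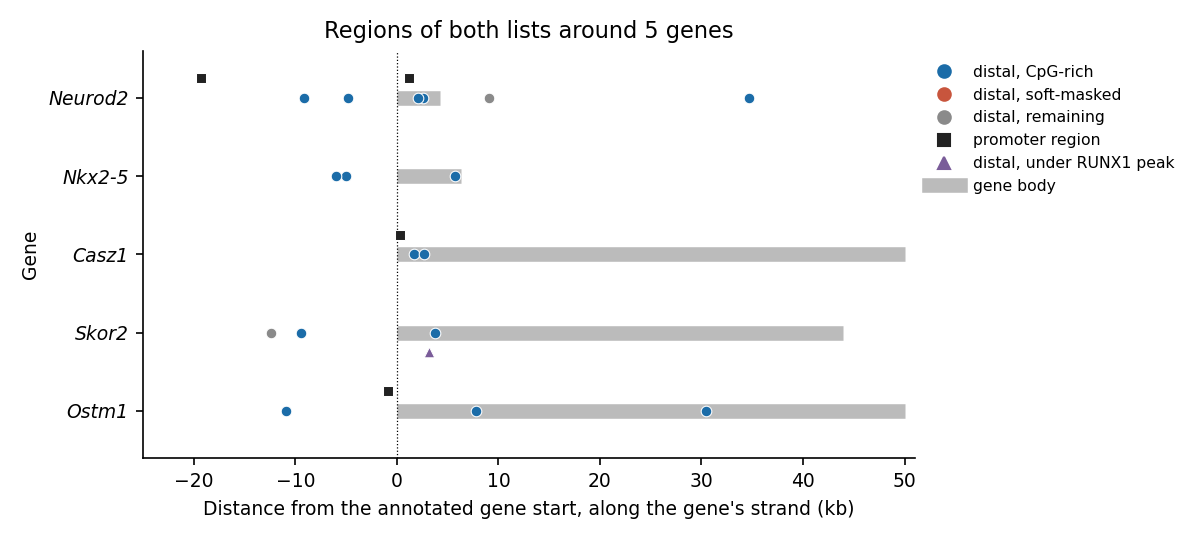
Circles are shared distal regions, squares promoter regions of both lists and triangles distal regions under a RUNX1 peak, placed in kb from the annotated gene start along the gene's strand, with the gene body as a grey bar; squares and triangles are drawn above and below the gene line. Neurod2 has 5 distal regions around its promoter region and another farther downstream that is nearest to a different gene, and Nkx2-5 has 3 without a promoter region; a region of Casz1 and one of Ostm1 lie beyond the span drawn, and the upstream point at Ostm1 is nearest to Nr2e1.

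Blood genes were next to these regions at a share near the background. Of 56 listed genes of the hematopoietic programme, 1 was (1.79%; 0.316 to 9.44), against 1.15% of protein-coding genes, namely Meis1, with an intergenic region 7.74 kb upstream. None of 27 endothelial, 21 pluripotency, 36 imprinted and 80 histone genes was the nearest gene of a region. The counts of 0 allow shares of up to 12.5%, 15.5%, 9.64% and 4.58%, all above the 1.15% of protein-coding genes, so none of these lists shows fewer than the background.

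The 414 nearest genes had 1 region in 354 cases, 2 in 50, 3 in 7, 4 in 2 and 5 in 1. Besides Neurod2 and Nkx2-5, genes with 3 or more were Casz1, a zinc finger regulator of heart and retina, with 3 CpG-rich regions 1.69 to 2.59 kb from a start, and Skor2, Ostm1, Adamtsl5 and Gm27901 with 3 each. Ostm1, a lysosomal membrane protein gene mutated in osteopetrosis, is beside Nr2e1. The promoter region assigned to Nr2e1 lay 8.67 kb from the closest of the 3 Ostm1 regions. It also lay at -0.879 kb from the annotated Ostm1 start, within the 1500 bp limit, and the Ostm1 promoter counted as marked too. Another set was made of repeated sequence. The 4 regions beyond the end of Hrh1, the histamine H1 receptor gene, had 55 to 60 other close copies each, and were 46.2 to 87.4 kb from the nearest of its annotated transcript starts, which lies inside the gene. The 4 regions near Gm25283 had 13 to 16 other copies and a CpG ratio of 0.41 to 0.50, and the 3 at Vmn1r-ps2, on chromosome 4, were soft-masked.

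Peak strength divided the regions along the same lines, which is a description of what the rule selected on. The median -log10 q was 11.2 for soft-masked, 7.497 for CpG-rich and 6.72 for remaining regions in the library titled untreated, and 11.1, 5.83 and 5.69 in the library titled DOX. The median fold enrichment of soft-masked regions was 7.83 and 7.59, against 5.22 and 4.93 for CpG-rich regions. Promoter regions were like the latter, at 5.40 and 5.14. Ranked by the lower percentile in the 2 lists, the 50 strongest regions comprised 28 soft-masked, 17 CpG-rich and 5 remaining ones, and the 100 weakest comprised 4, 64 and 32. Across the 488 regions, -log10 q in the 2 lists had a Spearman correlation of 0.52, as a description over regions that share both libraries. The percentile was higher in the library titled untreated at 227 regions and not at 261.

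**Figure D5:**
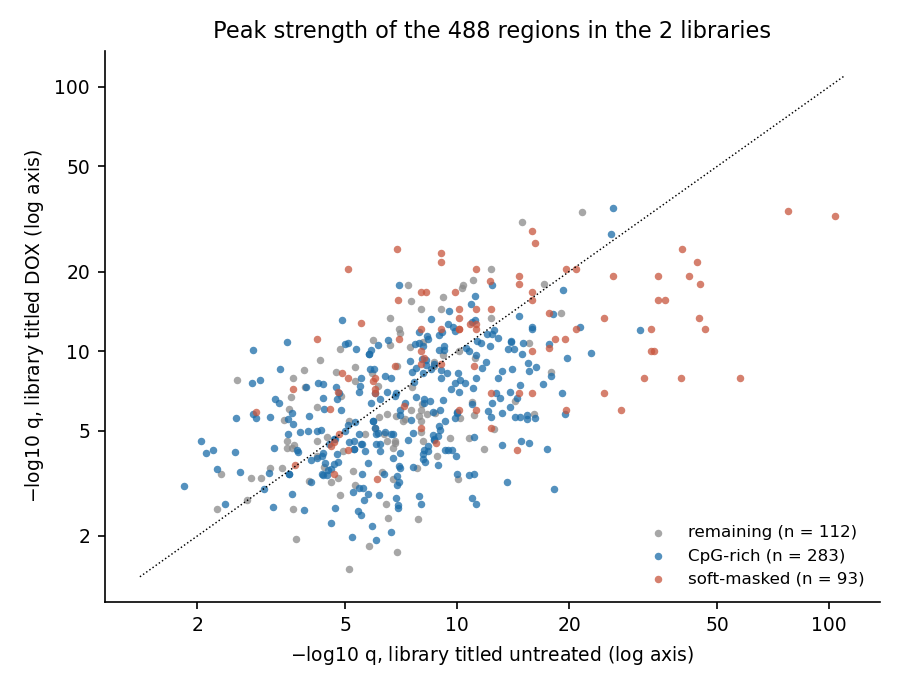
Each point is 1 of the 488 regions, with the -log10 q of its strongest peak in the library titled untreated on the horizontal axis and in the library titled DOX on the vertical axis, both log axes; the dotted line marks equal values. Most points at the far right are soft-masked and lie below the line, where the library titled untreated has the larger value.

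Alternating TA runs accounted for many of the strongest regions. A run of at least 30 bp stood in 27 of the 488 windows (5.53%; 3.83 to 7.93) and all 27 were soft-masked. Grid points had one at 0.176%, promoter regions at 0.245%, regions under RUNX1 peaks at 2.13% (1.25 to 3.62) and distal regions of 1 list at 4.81% (3.98 to 5.80), so the share was not distinguishable from that of the 1-list regions. Of the 27, 13 lay in introns and 14 between genes, and 15 were among the 50 strongest regions. Their median fold enrichment was 15.7 in the library titled untreated (8.27 to 33.4) and 8.39 in the library titled DOX (5.99 to 15.2). The region near Knop1 had a -log10 q of 77.5 in the library titled untreated and 33.8 in the library titled DOX. In the library titled DOX the highest value was that of the CpG-rich region at Unc45bos, 34.7, whose window repeats a longer unit.

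The fold values of these repeats had a further property in common. MACS2 divides the pile-up of a peak by the larger of a genome-wide and a local background level, so peaks that share the lowest denominator have folds that are whole multiples of 1 step. Such a step was 0.435 in the library titled untreated and 0.400 in the library titled DOX, taking a value within 0.002 steps of a whole number as a multiple. Multiples made up 56.99% (46.8 to 66.6) and 69.9% (59.9 to 78.3) of the folds of soft-masked regions, against 2.12% (0.975 to 4.55) and 6.01% (3.78 to 9.41) for CpG-rich regions and 2.65% and 4.57% for promoter regions. Remaining regions had such folds at 7.14% (3.66 to 13.5) and 9.82% (5.57 to 16.7). The shares were 35.3% and 38.9% for distal regions under RUNX1 peaks, and 11.3% and 22.1% for all peaks of the lists. Of the 27 regions with a TA run, 19 and 27 had such folds. The share of folds on the step moved with sequence kind, and the part of the background level in the strength of these regions was not tested.

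Copy number also differed by kind, but not along the same lines. Remaining regions had copies about as often as soft-masked ones. Another place with at least 95% identity over at least 90% of the window was found for 81 of the 488 windows (16.6%; 13.6 to 20.2), namely 11 CpG-rich (3.89%), 33 soft-masked (35.5%) and 37 remaining ones (33.0%), against 7.31% (6.34 to 8.41) of promoter regions and 27.9% (24.5 to 31.6) of distal regions under RUNX1 peaks. Reads from near-identical places cannot be told apart. The part of multiple mapping in these calls was not tested.

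RUNX1 peaks overlapped none of the 488 by the rule, but lay within 10 kb of 189 (38.7%; 34.5 to 43.1), against 13.5% of distal grid points, 21.0% (17.96 to 24.5) of CpG-rich distal grid points and 32.4% (30.4 to 34.4) of distal regions of 1 list. Among the 3 kinds, remaining regions had 53.6% (44.4 to 62.5), CpG-rich regions 35.3% (30 to 41.1) and soft-masked regions 31.2% (22.7 to 41.2). Promoter regions reached 54.2% (52.2 to 56.2), and windows 2000 bp away 39.0% (35.9 to 42.1). The promoter regions were not filtered by RUNX1 peaks, and only 1817 of the 2449 had no such peak overlapping them. The others count as within 10 kb of a RUNX1 peak by definition, so 54.2% and 38.7% are not a matched comparison.

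The limit of 1500 bp cut through a continuous range of distances. The regions just inside were at Kcnk13 (1511 bp), Klhl29 (1517 bp) and C2cd4a (1535 bp), with CpG ratios of 0.74, 0.82 and 0.61. Just outside were regions at Pcdh10 (1497 bp), E030030I06Rik (1500 bp) and A330074H02Rik (1500 bp), with ratios of 1.07, 0.83 and 1.04. RefSeq, which has other transcripts, placed a start within 1500 bp of 70 of the 488 (14.3%), of which 51 were CpG-rich, which are distal in GENCODE's annotation and not in RefSeq's.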

How the data were processed

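Peak lists of 4 ChIP-seq libraries from mouse progenitors were used, 1 per label. According to the submitters' processing notes, reads were aligned to mm10 with Bowtie2 2.2.9 and peaks called per library with MACS2 2.1.1. The authors' deposited lists give every peak a fold enrichment (a linear ratio to background) together with -log10 p-value and -log10 q-value columns. The methods give a q-value threshold of 0.05 for RUNX1 and do not describe the H3K27me3 libraries. The control used is not given in the sources used here, and the depth is unknown.

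Libraries were grouped by title (H3K27me3) or labelled treatment (RUNX1). The members, gene lists and measures were chosen with earlier results of these data known. Peaks were merged with Python 3.11.15 and numpy 2.4.6, annotated with GENCODE's mouse annotation (RefSeq as an alternative), and described on the 200 bp at the region centre in RefSeq's GRCm38 sequence. Region windows with unknown bases (6, none of them among the 488) were left out. Copies were sought with blastn 2.17.0 (at least 95% identity over 90% of the window). Shares have Wilson intervals of 95% and medians have order-statistic intervals. On simulated data, 5000 of 5000 regions were placed in their class, and the intervals held the true value in 961 and 957 of 1000 runs. Named genes were the nearest genes of the 10 regions with the highest lower percentile of -log10 q, the 10 genes next to most regions, up to 10 genes per list, the 5 longest regions, the 5 CpG-rich regions with the highest CpG ratio more than 50 kb from a promoter region, and 3 regions on either side of the limit; genes with the longest coding exons, host genes, and Prdm12 and Btbd17 were named after their values were seen. Alternatives changed the overlap, q-value, merging gap, distance and start rules, RUNX1 exclusion, chromosomes, repeats, copies, window and nearest gene. Results for a few genes and 1 sequence are not reported here.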

Additional observations from a re-analysis of the deposited data

Results flagged for a closer look

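Peaks outside chromosomes 1 to 19 formed shared regions that the comparisons above did not use. The same rule gave 10 regions on X and 13 on Y. Unplaced, random and mitochondrial sequences, where distance to a start was not applied, held 192 regions with a peak of both lists. These were singled out because they are signal in sequence left out of the main counts, above the limit of 3 that a count of 0 allows.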

How the results depend on the processing

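Of 82 values under 14 alternatives, 53 stayed within the interval of the main value or, for the number of regions, within 1.5 times it. The other 29 were as follows, and their cause was not tested. Requiring -log10 q of at least 5 in both lists left 273 regions, 51.3% CpG islands, 29.3% over 50% soft-masked, a median of 243 kb to a promoter region and 7.69% next to a developmental regulator. A limit of 5000 bp to a start left 296 regions, 43.9% in gene bodies, 50% CpG islands, a CpG ratio of 0.64 and 27.03% soft-masked. Keeping regions under RUNX1 peaks gave 1100 regions, 48.9% in gene bodies, 32.0% CpG islands, a ratio of 0.36, 37.8% soft-masked, 258 kb and 5.09%. Leaving out masked regions gave 71.5% CpG islands, a ratio of 0.79, 0% soft-masked and 76.1 kb. Leaving out windows with copies gave 66.8%, 0.77 and 15.2% soft-masked, and a window of 500 bp gave 15.4% soft-masked. Starts of protein-coding genes alone gave 148 kb and 17.3% next to a developmental regulator, the nearest protein-coding start gave 17.4%, and promoter regions of either list gave 46.8 kb. Counting RefSeq starts too, an alternative chosen after seeing the data, left 418 regions, with all values within the interval.

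No paired analysis was possible because the results come from no test and each label has 1 library. Depth is unknown, so no region can be called absent from a library. Regions of 1 gene or repeat family are not independent, which makes the intervals too narrow. Because the titles and treatment labels of the H3K27me3 libraries contradict each other, no effect of DOX was read from them.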

Other observations

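Signalling and ion channel genes added smaller groups. For comparison, 1.15% of protein-coding genes and 0.808% of all genes were the nearest gene of a region, so the Zfp and structural RNA shares below are near the background. Of 106 listed signalling genes, 5 were the nearest gene of 6 regions, all CpG-rich: Wnt1 with 2 in its coding exons, and Wnt6, Wnt8b, Fgf23 and Cyp26b1 with 1 each. The promoters of Wnt1 and Wnt6 also had a region of the mark in both lists. Of 264 ion channel and synapse genes, 8 were next to a region (3.03%; 95% Wilson interval 1.54 to 5.86), among them Cacna1a, Kcns1, Kcnh6 and Kcnk13 with CpG-rich regions in coding exons. Of 426 zinc finger genes named Zfp, 7 were (1.64%; 0.798 to 3.35), with 9 regions, 8 of them CpG-rich. Zfp316 and Zfp467 had 2 each in coding exons. Of 1782 chemosensory receptor genes and pseudogenes, 3 were the nearest gene of a region. Small structural RNA genes, 5701 in all, had 35 next to 44 regions (0.614%; 0.442 to 0.853), and of 68 protocadherin genes Pcdh17 and Pcdhgb6 had 1 each.

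Regions were spread over every chromosome from 1 to 19. Chromosome 11 had the most, 47, or 3.85 per 10 Mb, and chromosome 3 the fewest per length, 11, or 0.687 per 10 Mb.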
